A study of Mus musculus with 6 samples.

Results

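The matrix metalloproteases (MMPs), the ADAMTS proteases and the tissue inhibitors of metalloproteases (TIMPs) were followed in the tissue of the future anterior hard palate of C57BL/6 mouse embryos at E14.5. Members were taken by gene symbol: Mmp followed by a number and at most 1 letter, Adamts followed by a number, and Timp followed by a single digit. The rule found 46 of 23420 genes, of which 23 are Mmp, 19 are Adamts and 4 are Timp genes. The mutant group was Shox2Cre/-;Nkx2.5F/F and the control group was Shox2Cre/+;Nkx2.5F/F, with 3 RNA sequencing libraries in each. Both groups share the Shox2-driven Cre allele and the floxed Nkx2.5 alleles, so the controls, although titled WT, are not wild type. The groups differ in the other Shox2 allele, which is minus in mutants and plus in controls. The Cre is made from the Shox2 locus, so in both groups Nkx2.5 can be lost only in cells that use Shox2. The labels leave unsaid how many embryos went into a library, so p-values measure only the spread between these libraries, which may be technical.

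MMPs are zinc-dependent enzymes that are made as inactive precursors and, once activated, cut collagens and other matrix proteins outside the cell. ADAMTS proteases are secreted relatives with thrombospondin repeats that trim procollagens, aggrecan, versican and other large matrix proteins. TIMPs bind to the active site of these enzymes and block it. In the developing palate the shelves grow within a matrix rich in versican and hyaluronan before bone is laid down, and bone is later reshaped by osteoclasts, which release Mmp9 among other proteases.

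Total counts ran from 52668242 to 53331397 in the mutant libraries and from 81950407 to 134813429 in the controls, so depth and genotype cannot be told apart. Low counts tended to be even, most of all in mutant replicate 1 (99.7% of counts from 5 to 50, against 63.6% to 73% in the other 5 libraries). Levels are CPM, the counts scaled to a common library total, with TMM correcting for library composition. Shox2 had 5.3, 4.12 and 3.13 CPM in the mutants and 88.2, 68.2 and 81.6 CPM in the controls, as the genotype labels require. Nkx2-5 had 0 counts in each mutant library and 8, 0 and 4 counts in the controls. All 9 marker genes of palatal mesenchyme were detected. Among them, Osr2 (a transcription factor of the palate) had 93.7 to 102 CPM in the mutants and 86.2 to 146 CPM in the controls.

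Most members did not pass the test between mutant and control tissue, and those that did were 3 inhibitors and 4 proteases. Of 40 members with enough counts to test, 7 were called by edgeR's quasi-likelihood test at a Benjamini-Hochberg adjusted p under 0.05, 5 higher and 2 lower in the mutant. That is 17.5% of tested members, whereas 45.8% of all 16604 tested genes were called (24.1% higher and 21.7% lower). The 2 that fell were Mmp9 and Timp1. The 5 that rose were Timp4, Mmp8, Adamts13, Timp2 and Mmp15. The median log2 fold change over tested members was 0.03, beside -0.004 over all tested genes, and the median absolute log2 fold change was 0.30, beside 0.38. The 3 mutant libraries did not overlap the 3 controls for 8 tested members, 20% of them, where 58.9% of all tested genes did not overlap. By family, 3 of 4 TIMPs, 3 of 17 tested MMPs and 1 of 19 ADAMTS genes were called. Another 3 members, 2 of them ADAMTS genes, had an unadjusted p under 0.05 without passing the adjustment. Epithelial markers also differed, with 10 of 10 higher (summed level 3992 to 4467 CPM in mutants and 871 to 1486 CPM in controls), as did 7 of 7 tested genes of stratified epithelium (1143 to 3426 CPM in mutants and 55.6 to 102 CPM in controls). Of 7 skeletal muscle markers 6 fell. The part of these cell types in any member's difference was not tested.

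**Figure D1:**
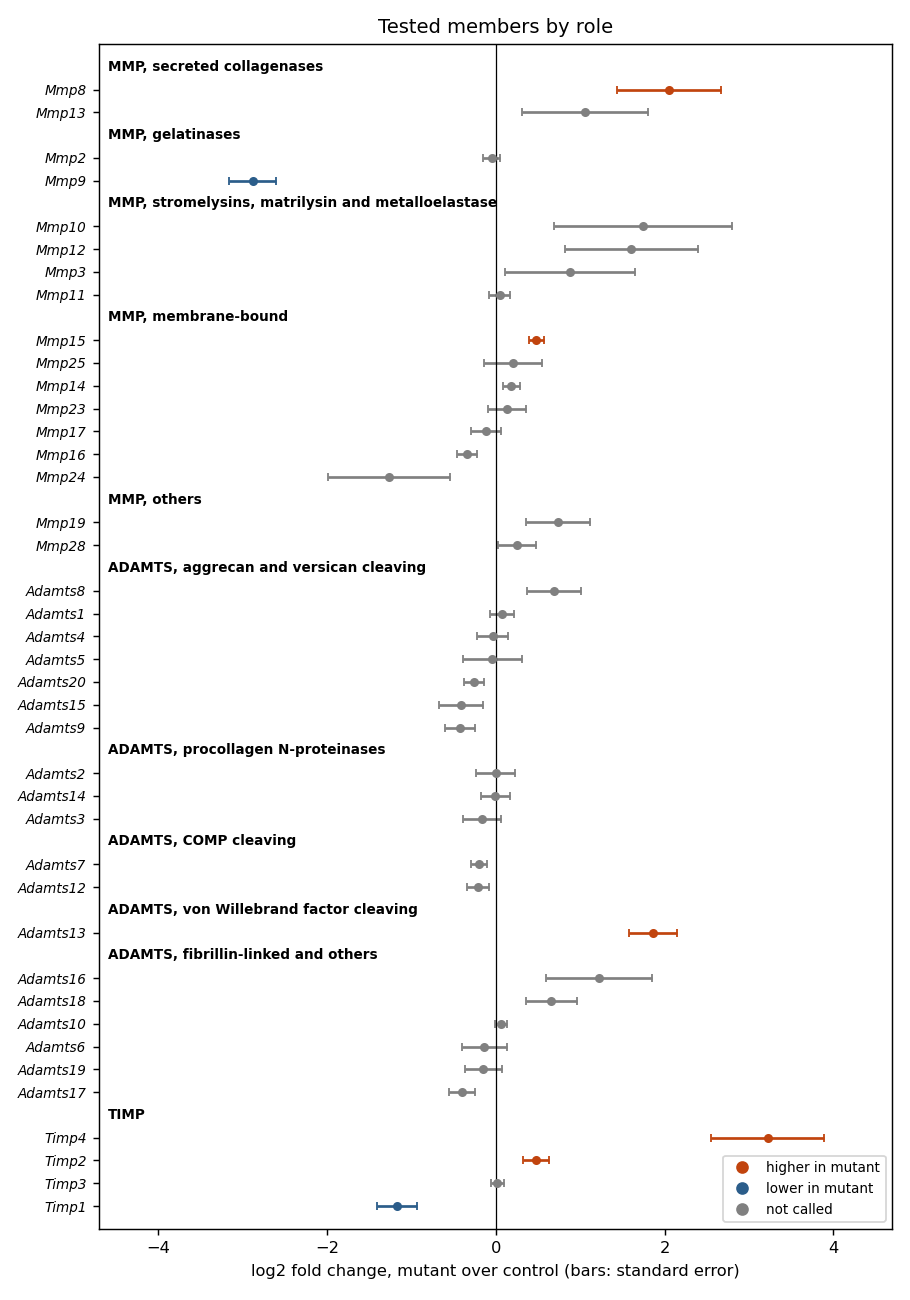
The horizontal axis gives the log2 fold change of mutant over control from edgeR with its standard error for each of the 40 tested members, grouped by role down the page. Mmp9 stands at the far left at -2.88 and Timp4 at the far right at 3.22, and 18 of the 19 ADAMTS genes are drawn in grey as not called.

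The inhibitors moved in different directions. Timp1, a secreted inhibitor of broad range, had 12.1, 10 and 10.5 CPM in the mutants and 15.7, 27.4 and 30.1 CPM in the controls. All mutants lay below all controls, and control replicate 1 was the lowest control. Timp1 fell by 1.17 on the log2 scale (SE 0.24, edgeR adjusted p = 0.00683), with means of 10.9 ± 1.12 CPM in mutants and 24.4 ± 7.65 CPM in controls (SD, n = 3 each). Timp1 lies on chromosome X from 20870166 to 20874735, plus strand, in GENCODE M21 on GRCm38, inside Syn1, a synapsin gene on the other strand. The exons of the pair do not overlap (0 bp). Syn1 itself had 0.618, 0.666 and 0.465 CPM in the mutants and 4.54, 5.22 and 4.91 CPM in the controls. The mean of 4 Y-linked genes was 5.58, 5.83 and 5.63 log2 CPM in mutants and 5.45, 3.09 and 4.36 log2 CPM in controls. Each mutant lay above each control in this mean, so it is partly tied to genotype in these libraries. Whether the sex of the embryos differed between the groups was not tested. With that mean as a covariate, an alternative added after the data were seen, Timp1 had a log2 fold change of -0.69 and was not called (adjusted p = 0.0992).

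Timp2, which both inhibits MMPs and helps membrane-bound Mmp14 activate Mmp2, had 551, 605 and 578 CPM in mutants and 314, 490 and 440 CPM in controls. The groups did not overlap. Timp2 rose by 0.48 on the log2 scale (SE 0.16, edgeR adjusted p = 0.0399), with means of 578 ± 26.7 CPM in mutants and 415 ± 90.4 CPM in controls (SD, n = 3 each). The call was lost without control replicate 3 (adjusted p = 0.0716) and without mutant replicate 1, 2 or 3 (adjusted p = 0.0634, 0.115 and 0.0943).

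Timp3, an inhibitor that stays bound to the matrix and also blocks aggrecan-cleaving ADAMTS proteases, had 147, 169 and 149 CPM in mutants and 149, 160 and 150 CPM in controls. The groups overlapped, and the log2 fold change was 0.02 (SE 0.08, edgeR adjusted p = 0.868). The exons of Timp3 share 1733 bp with Syn3 on the other strand, and the strand setting was not given in the sources used here.

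Timp4, the TIMP best known from heart and brain, had 1.71, 6.64 and 6.79 CPM in mutants and 0.223, 0.495 and 0.875 CPM in controls. Every mutant lay above every control, and mutant replicate 1 lay well below the other mutants. Timp4 rose by 3.22 on the log2 scale (SE 0.67, edgeR adjusted p = 0.00693). With the Y-linked covariate it was not called (log2 fold change 3.66, adjusted p = 0.0598). Its exons share 90 bp with Syn2, which was not called (log2 fold change -0.60, SE 0.41, edgeR adjusted p = 0.263).

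**Figure D2:**
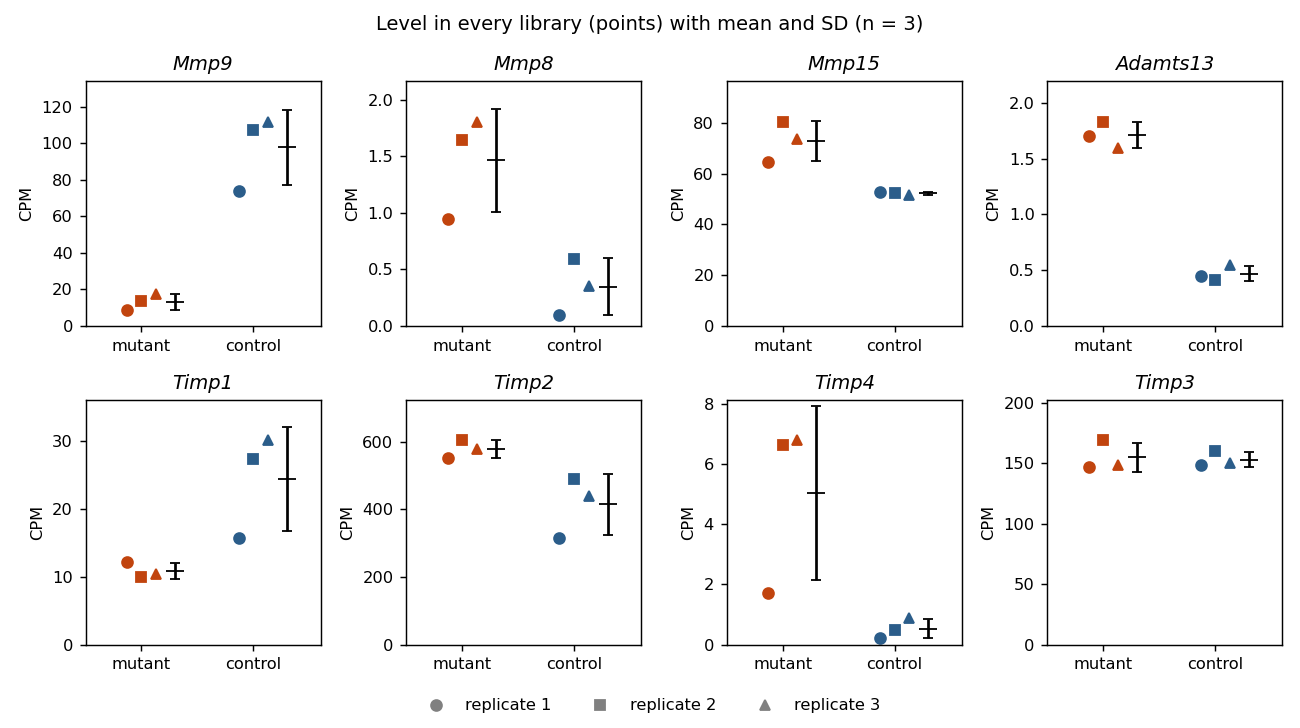
Each panel gives the CPM of 1 gene in the 3 mutant libraries (left) and the 3 control libraries (right), with the mean and SD beside them, for the 7 called members and Timp3. Mmp9 and Timp1 lie lower in all mutants, 5 genes lie higher, and the Timp3 groups overlap between 147 and 169 CPM.

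Per length of exon, Timp2 made up most of the TIMP transcripts in both genotypes. It took 82.2% ± 0.552 of the TIMP sum of CPM per kb in mutants and 69.6% ± 1.56 in controls (SD, n = 3 each). Timp1 took 6.8% ± 0.971 in mutants and 17.7% ± 2.68 in controls, and the groups did not overlap for either gene. These shares describe the libraries and were not tested. The summed CPM of the 4 inhibitors was 712, 790 and 745 in mutants and 479, 678 and 621 in controls, with all mutants above all controls. The summed CPM of the 23 Mmp genes was 1151, 1230 and 1169 in mutants and 1069, 1290 and 1240 in controls, which overlapped. The ADAMTS sum also overlapped, from 754 to 783 in mutants and from 728 to 849 in controls.

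Mmp9, or gelatinase B, was the protease with the smallest p of all members. It had 8.54, 13.9 and 17.3 CPM in the mutants and 74.0, 107 and 112 CPM in the controls. Each mutant lay far below each control. Mmp9 fell by 2.88 on the log2 scale (SE 0.28, edgeR adjusted p = 0.000426), and it was called in all 20 alternatives, from -3.12 to -2.58. The mean in controls was 7.36 times that in mutants. Mmp9 lies on chromosome 2 from 164940780 to 164955850, plus strand.

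Osteoclasts are a cell type known for Mmp9. Of 10 osteoclast markers 5 were lower, 1 was higher and 4 (Nfatc1, Oscar, Calcr and Itgb3) were not called, with a median log2 fold change of -1.21. Their summed level ranged from 110.4 to 118 CPM in mutants and from 109 to 211 CPM in controls, so the sums overlapped. Atp6v0d2, a proton pump subunit, had 0.145, 0.148 and 0.447 CPM in mutants and 3.35, 6.23 and 7.95 CPM in controls. Ctsk, the collagen-cutting cathepsin K of osteoclasts, fell by 1.42 on the log2 scale (SE 0.32, edgeR adjusted p = 0.00974). Tnfrsf11a, the receptor for the osteoclast factor RANKL, was the 1 that rose (0.74, SE 0.21, edgeR adjusted p = 0.0226). None of the 10 was at 0 in all libraries, while Ocstamp and Oscar were at 0 in 1 and 2 mutant libraries. In bulk tissue, fewer cells of a type and less RNA per cell cannot be told apart, and the part of osteoclasts in the Mmp9 difference was not tested.

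Mmp2, or gelatinase A, the other gelatinase, was not called. It had 444, 528 and 504 CPM in mutants and 461, 558 and 508 CPM in controls, which overlapped. Its log2 fold change was -0.05 (SE 0.10, edgeR adjusted p = 0.721). Per exon length Mmp2 took 49.9% ± 4.08 of the MMP sum in mutants and 50.1% ± 1.47 in controls, and Mmp9 took 1.28% ± 0.444 in mutants and 9.08% ± 1.21 in controls (SD, n = 3 each).

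**Figure D3:**
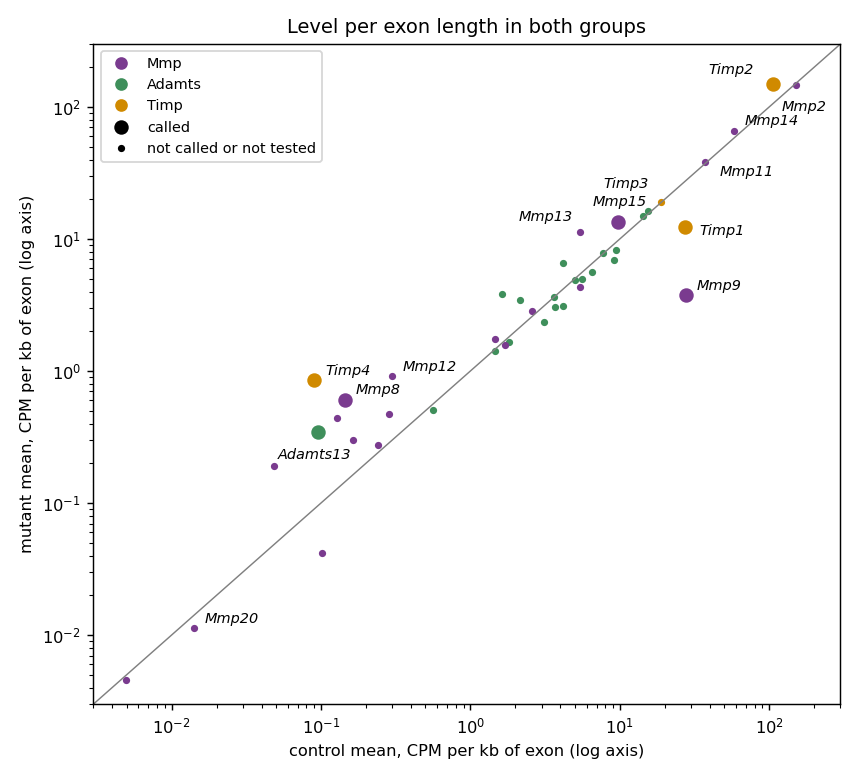
Mean CPM per kb of merged exons in mutants (vertical, log axis) against controls (horizontal, log axis) for the 43 members with counts in both groups, with the line of equal levels. Mmp2, Timp2, Mmp14 and Mmp11 are the most abundant per length and lie on or near the line, while Mmp9 and Timp1 lie below it and Timp4, Mmp8 and Adamts13 lie above it at low levels.

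Among the membrane-bound MMPs 1 of 7 was called. Mmp15, a transmembrane MMP, had 64.4, 80.4 and 73.8 CPM in mutants and 52.9, 52.4 and 51.8 CPM in controls. The groups did not overlap, and Mmp15 rose by 0.48 on the log2 scale (SE 0.09, edgeR adjusted p = 0.00441). Mmp14, the transmembrane enzyme that activates Mmp2, had 365, 418 and 400 CPM in mutants and 303, 372 and 365 CPM in controls. Its groups overlapped and it was not called (0.19, SE 0.10, edgeR adjusted p = 0.168). Mmp16, a relative of Mmp14, had 34.8, 41.7 and 35.2 CPM in mutants and 40.9, 53.2 and 47.2 CPM in controls. Mmp16 overlapped in 1 mutant library and missed the threshold (-0.34, SE 0.12, edgeR adjusted p = 0.0534). It was called lower in 5 of 20 alternatives. Among these were DESeq2 (adjusted p = 0.0335) and edgeR without control replicate 1 (adjusted p = 0.0174) and without mutant replicate 2 (adjusted p = 0.0439). Mmp24, an MMP known from neurons, had 14, 4 and 14 counts in mutants and 43, 76 and 20 counts in controls and was not called (-1.27, SE 0.72, edgeR adjusted p = 0.189). Its exons share 637 bp with BC029722 on the other strand. The other 3, Mmp17, Mmp23 and Mmp25, had log2 fold changes from -0.12 to 0.20.

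Of the Mmp genes, 10 form a cluster of 427.1 kb on chromosome 9, from 7272514 to 7699585 in GENCODE M21 on GRCm38, in the order Mmp13, Mmp12, Mmp1b, Mmp3, Mmp1a, Mmp10, Mmp8, Mmp27, Mmp20 and Mmp7. Of these, 5 had enough counts to test and 1, Mmp8, was called. The upstream sequences of the tested 5 are shown because Mmp13, Mmp12 and Mmp10 stood apart in the same libraries, as described next. They are the 150 bases before each RefSeq start on GRCm38.p6, plus strand, 5′ to 3′, at chr9:7272364-7272513 for Mmp13, chr9:7344247-7344396 and chr9:7347224-7347373 for the first and second start of Mmp12, chr9:7445672-7445821 for Mmp3, chr9:7502192-7502341 for Mmp10 and chr9:7558279-7558428 for Mmp8. Capitals mark TGANTCA, the recognition sequence of AP-1, a dimer of FOS and JUN proteins.
Mmp13: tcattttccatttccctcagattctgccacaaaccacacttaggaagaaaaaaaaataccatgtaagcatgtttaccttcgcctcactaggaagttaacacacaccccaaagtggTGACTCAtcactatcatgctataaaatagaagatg
Mmp12, first start: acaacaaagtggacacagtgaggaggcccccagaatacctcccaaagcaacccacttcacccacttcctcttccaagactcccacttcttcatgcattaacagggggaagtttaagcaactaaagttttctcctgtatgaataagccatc
Mmp12, second start: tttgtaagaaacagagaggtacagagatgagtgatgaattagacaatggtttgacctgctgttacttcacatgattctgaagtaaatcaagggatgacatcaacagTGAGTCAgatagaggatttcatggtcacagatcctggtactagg
Mmp3: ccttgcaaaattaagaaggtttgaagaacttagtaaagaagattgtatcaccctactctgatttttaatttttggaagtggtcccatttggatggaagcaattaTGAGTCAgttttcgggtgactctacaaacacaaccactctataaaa
Mmp10: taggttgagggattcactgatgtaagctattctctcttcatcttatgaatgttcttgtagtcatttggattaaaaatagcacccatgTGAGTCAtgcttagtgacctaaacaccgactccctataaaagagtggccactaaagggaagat
Mmp8: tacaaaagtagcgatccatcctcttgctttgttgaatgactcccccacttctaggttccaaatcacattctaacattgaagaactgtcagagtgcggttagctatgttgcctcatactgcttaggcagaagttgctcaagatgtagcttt

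The letters TGANTCA, which read the same on both strands, were found upstream of Mmp13 from -35 to -29, Mmp3 from -46 to -40, Mmp10 from -63 to -57 and the second start of Mmp12 from -44 to -38, counted back from -1 at the base before the start. Of all 32851 RefSeq promoter windows of 150 bases, 4.24% held it. Among members, 32 of 46 had a promoter in the table and 8 of the 32 held TGANTCA in at least 1 window. All 8 lie in the cluster on chromosome 9, and Mmp1a, Mmp1b, Mmp20 and Mmp7 among them were too low to test. No matched member outside the cluster held it. The members without a promoter, among them Mmp9, Mmp2 and Adamts16, all lie outside the cluster and were not searched. The 8 of 32 counts genes over any start, whereas the 4.24% counts single windows. The RUNX letters TGTGGT, on either strand, were present upstream of Mmp13 from -118 to -113 as ACCACA, and in 8.4% of all windows. Of the 32 matched members, 4 held the RUNX letters in at least 1 window. The homeodomain core TAATTA was present in none of the 6 windows shown and in 2.73% of all windows. None of these motifs overlapped another in the windows shown, and a match is a description of letters, not a measured site.

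Mmp13, the main collagenase of growing bone in the mouse, had 65.8, 9.43 and 15.2 CPM in mutants and 6.39, 15.0 and 22.0 CPM in controls. Mutant replicate 1 was the highest of all 6 libraries and control replicate 1 the lowest. Mmp13 was not called (1.05, SE 0.75, edgeR adjusted p = 0.284), and its log2 fold change was -0.24 without mutant replicate 1 and -0.60 with replicate 1 of both groups left out (adjusted p = 0.725 and 0.0955). Mmp12, the metalloelastase of macrophages, had 14.2, 2.81 and 2.83 CPM in mutants and 0.693, 2.33 and 3.44 CPM in controls. Mmp10, stromelysin 2, had 104, 14 and 7 counts in mutants and 4, 30 and 42 counts in controls. Both had the same order as Mmp13 at replicate 1 and neither was called. Mmp12 had a value of 1.61 on the log2 scale (SE 0.79, edgeR adjusted p = 0.134), against 0.38 without mutant replicate 1, although DESeq2 called it higher (adjusted p = 0.0425). Mmp10 had 1.75 (SE 1.05, edgeR adjusted p = 0.212), against -0.21 without mutant replicate 1. The exons of Mmp12 share 157 bp with Mmp1b, which had 0 counts in all 6 libraries.

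Mmp3, stromelysin 1 and the close relative of Mmp10, ran the other way in mutant replicate 1. It had 4, 39 and 44 counts in mutants and 34, 26 and 27 counts in controls, or 0.0727, 0.721 and 0.819 CPM and 0.421, 0.258 and 0.204 CPM. Mutant replicates 2 and 3 lay above all controls and mutant replicate 1 lay below them. Mmp3 was not called (0.88, SE 0.77, edgeR adjusted p = 0.383), but it was called higher without mutant replicate 1 (1.40, adjusted p = 0.0484). Mmp3 and Mmp10 are close relatives, and how shared reads were counted was not given, so both are uncertain.

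**Figure D4:**
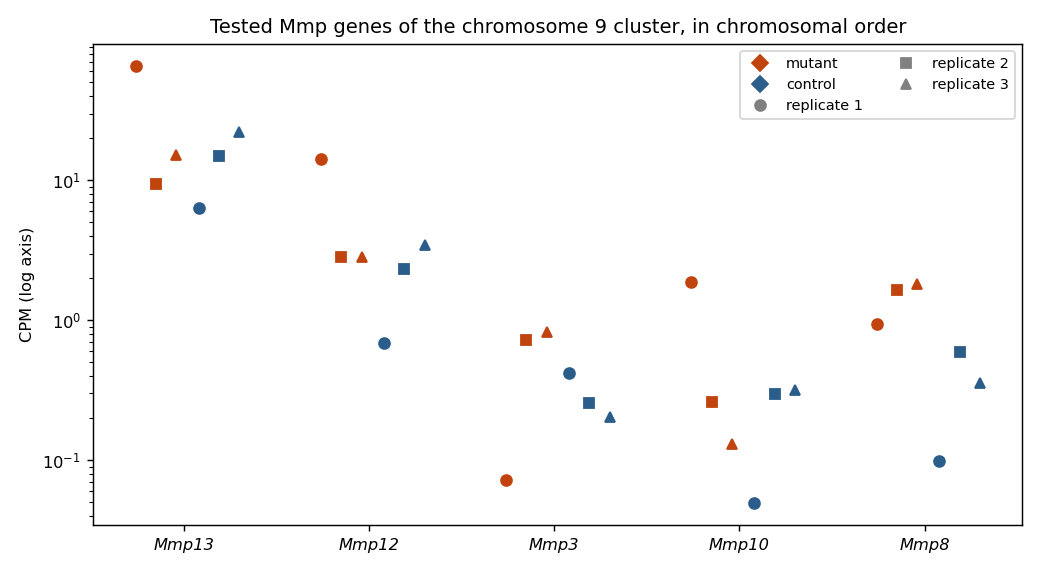
CPM on a log axis for the 5 tested Mmp genes of the chromosome 9 cluster in chromosomal order, mutants left of controls within each gene, with a symbol for each replicate. For Mmp13, Mmp12 and Mmp10 the circle of mutant replicate 1 is on top and the circle of control replicate 1 at the bottom, for Mmp3 the circle of mutant replicate 1 is at the bottom, and for Mmp8 all mutants lie above all controls.

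These members were among those that set 2 libraries apart. In mutant replicate 1, 4 of 40 tested members (10%) lay over 2-fold above both other mutants, namely Mmp13, Mmp12, Mmp10 and Adamts16, beside 1.61% of all tested genes. Another 3 (7.5%) lay over 2-fold below, namely Mmp3, Timp4 and Adamts5, beside 3.85% of all tested genes. In control replicate 1, 5 members (12.5%) lay over 2-fold below both other controls, namely Mmp13, Mmp12, Mmp10, Mmp8 and Timp4, beside 4.84% of all tested genes. In the other 4 libraries at most 1 member, Mmp24, lay over 2-fold away from its group. Of 10 tested osteoblast markers 9 fell, beside 21.7% of all tested genes. The summed level of all 11 was 414, 486 and 537 CPM in mutants and 987, 3545 and 3059 CPM in controls, so replicate 1 was the lowest of each group. The part of osteoblasts in the spread of these members was not tested.

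Mmp8, the collagenase stored by neutrophils, rose by 2.05 on the log2 scale (SE 0.61, edgeR adjusted p = 0.0291). It had 52, 89 and 97 counts in mutants and 8, 60 and 47 counts in controls, or 0.945, 1.65 and 1.81 CPM and 0.0989, 0.594 and 0.355 CPM. All mutants lay above all controls. Leaving out control replicate 3, mutant replicate 2 or mutant replicate 3 ended the call, with edgeR adjusted p of 0.0797, 0.0822 and 0.0866. Of 8 neutrophil markers in the files 1 was higher and 7 were not called, beside 24.1% of all tested genes called higher. The summed level of these 8 ranged from 22.3 to 91.1 CPM in mutants and from 3.01 to 16.4 CPM in controls. In mutant replicate 1, where Mmp8 had 0.945 CPM, the neutrophil granule genes Camp, Ngp and Elane were at 0, S100a8 had 0.4 CPM and S100a9 had 0.182 CPM. The 1 that rose was Ltf, lactoferrin, with 21.5, 47.6 and 47.1 CPM in mutants and 0.235, 2.28 and 0.973 CPM in controls. Ltf alone gave 21.5 of 22.3, 47.6 of 91.1 and 47.1 of 85.3 CPM of the summed level in mutant replicates 1, 2 and 3. The part of neutrophils in the Mmp8 difference was not tested.

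All 8 macrophage markers in the files rose, beside 24.1% of all tested genes. The summed level of these 8 ranged from 334 to 434 CPM in mutants and from 77.2 to 136.7 CPM in controls. Mutant replicate 1, the library highest in Mmp12, had the lowest macrophage sum among the mutants. The markers are given as measured, and the macrophage part in Mmp12 was not tested.

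**Figure D5:**
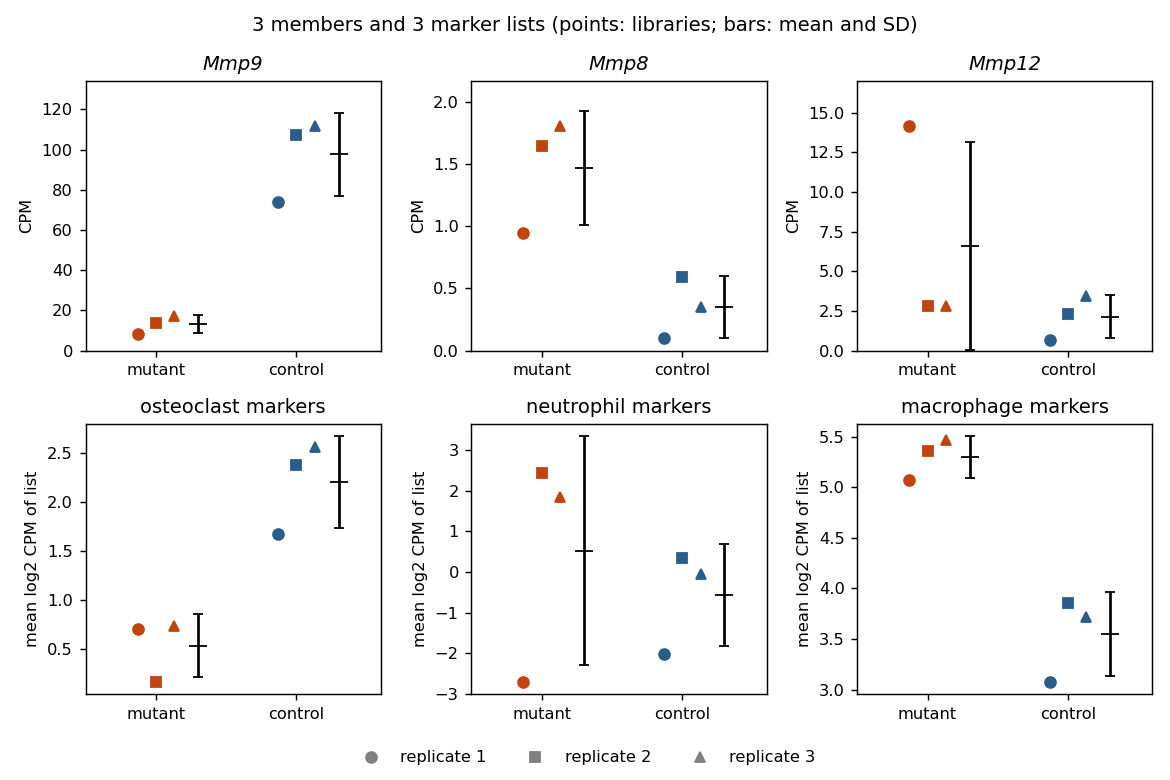
The upper row gives CPM of Mmp9, Mmp8 and Mmp12 in each library, and the lower row the mean log2 CPM of the osteoclast, neutrophil and macrophage marker lists, mutants left of controls, with the mean and SD. Mmp9 and the mean log2 CPM of the osteoclast list are lower in all mutants, the neutrophil mean in mutant replicate 1 is the lowest of all 6 libraries at -2.7, and the macrophage means of the mutants (5.07 to 5.46) all exceed those of the controls (3.08 to 3.86).

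Of the remaining MMPs none was called. Mmp11, stromelysin 3, a protease of embryonic and wound mesenchyme, had 127, 102 and 90.3 CPM in mutants and 106, 101 and 103 CPM in controls. The groups overlapped and the log2 fold change was 0.04 (SE 0.12, edgeR adjusted p = 0.786). Its exons share 155 bp with Chchd10, a mitochondrial protein gene on the other strand that rose (2.47, SE 0.19, edgeR adjusted p = 0.000245). Mmp19 had 1.85, 1.2 and 1.99 CPM in mutants and 0.594, 1.3 and 1.12 CPM in controls (0.74, SE 0.38, edgeR adjusted p = 0.149), and shares 789 bp of exon with Tmem198b, which rose by 0.40. Mmp28, or epilysin, had 4.8, 7.17 and 8.34 CPM in mutants and 5.05, 5.93 and 6.08 CPM in controls (0.25, SE 0.23, edgeR adjusted p = 0.404). Both overlapped between the groups.

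The 6 members too low to test were all MMPs. Mmp7, or matrilysin, an epithelial protease, had 8, 18 and 7 counts in mutants and 4, 7 and 5 counts in controls, or 0.145, 0.333 and 0.13 CPM and 0.0495, 0.0694 and 0.0377 CPM. All mutants lay above all controls in CPM. Mmp20, the enamel protease of tooth germs, had 2, 0 and 4 counts in mutants and 0, 8 and 8 counts in controls. Mmp21 had 2 and 4 counts over the mutants and controls, Mmp1a had 0 and 6, and Mmp27 had 0 and 4. Mmp1b had 0 counts throughout, and a count of 0 allows up to 0.0563 to 0.057 CPM in a mutant library and 0.0223 to 0.0366 CPM in a control library (3 counts, counting error only). With all libraries as analysed first, none of these 6 was tested. A setting without a filter on low counts took in all but Mmp1b and still called 5 members higher and 2 lower. Without mutant replicate 1, 6 members were higher and 3 lower. The 40 tested members kept 6 calls and gained 2 there, so a member of these 6 was also called.

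Of 19 ADAMTS genes, all tested, 1 was higher, none was lower and 18 were not called, with a median log2 fold change of -0.04. Adamts13, which cuts von Willebrand factor in blood, was the exception. It had 94, 99 and 86 counts in mutants and 36, 42 and 72 counts in controls, or 1.71, 1.83 and 1.6 CPM and 0.445, 0.416 and 0.543 CPM. The groups lay well apart at this low level, and Adamts13 rose by 1.86 on the log2 scale (SE 0.29, edgeR adjusted p = 0.00206), with a call in all 20 alternatives (1.78 to 1.99). Of 7 endothelial markers none was called, beside 45.8% of all tested genes. In sum these 7 ranged from 485 to 663 CPM in mutants and from 418 to 553 CPM in controls.

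Exons of Adamts4, Adamts7, Adamts8 and Adamts9 share 171, 122, 489 and 1381 bp with a gene on the other strand, so these counts are uncertain without a strand setting.

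None of the 7 proteases that cut aggrecan and versican was called. Adamts9, which clears versican in the palate, had 40.7, 51.6 and 47.9 CPM in mutants and 46.2, 73.5 and 67.9 CPM in controls. Control replicate 1 lay within the mutant range, and Adamts9 was not called (-0.42, SE 0.18, edgeR adjusted p = 0.0894). It was called lower in 3 of 20 alternatives, among them without control replicate 1 (-0.61, edgeR adjusted p = 0.00563). Adamts20, the belted gene of the mouse, which also acts in palate closure, had 28.2, 29.7 and 25.0 CPM in mutants and 37.8, 32.3 and 29.2 CPM in controls. It overlapped in 1 library of each group and was not called (-0.26, SE 0.12, edgeR adjusted p = 0.117). Adamts8 had 13.6, 17.8 and 16.8 CPM in mutants and 5.96, 15.0 and 8.82 CPM in controls (0.69, SE 0.32, edgeR adjusted p = 0.113). It was called higher in 3 of 20 alternatives, among them without control replicate 2 (1.12, edgeR adjusted p = 0.0126). Adamts15 had 16.4, 29.4 and 27.3 CPM in mutants and 31.9, 41.4 and 24 CPM in controls (-0.41, SE 0.26, edgeR adjusted p = 0.238). Its groups overlapped. Adamts1, Adamts4 and Adamts5 had log2 fold changes from -0.04 to 0.07.

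The 3 procollagen N-proteinases, which remove the amino-terminal propeptide of fibrillar collagens, overlapped between groups. Adamts2 had 52.5, 82.4 and 82.6 CPM in mutants and 52.6, 90.3 and 75.0 CPM in controls. Replicate 1 was the lowest of each group, and the log2 fold change was -0.003 (SE 0.23, edgeR adjusted p = 0.993). Adamts3 had 25.0, 26.8 and 28.7 CPM in mutants and 20.7, 40.7 and 29.1 CPM in controls (-0.17, SE 0.23). Adamts14 had 14.1, 21.6 and 20.96 CPM in mutants and 18.4, 20.1 and 18.5 CPM in controls (-0.01, SE 0.17). The pair that cuts cartilage oligomeric matrix protein was not called either. Adamts7 had 56.1, 52.5 and 46.0 CPM in mutants and 63.7, 59.0 and 55.1 CPM in controls (-0.20, SE 0.10, edgeR adjusted p = 0.12). Adamts12 had 52.0, 66.7 and 67.1 CPM in mutants and 63.2, 81.5 and 69.7 CPM in controls (-0.21, SE 0.13, edgeR adjusted p = 0.231).

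The last 6 ADAMTS genes include Adamts6, Adamts10 and Adamts17, relatives linked to fibrillin microfibrils. Adamts17 had 41.7, 58.5 and 61.2 CPM in mutants and 63.9, 79.8 and 68.7 CPM in controls. All mutants lay below all controls, yet it was not called (-0.40, SE 0.15, edgeR adjusted p = 0.0722), while DESeq2 called it lower (adjusted p = 0.041). Adamts10 had 140.0, 134 and 129 CPM in mutants and 136.8, 123 and 125 CPM in controls and was not called (0.06, SE 0.07, edgeR adjusted p = 0.474). Adamts16 had 56.2, 9.99 and 12.3 CPM in mutants and 12.0, 8.56 and 13.0 CPM in controls. Mutant replicate 1 alone stood high, and Adamts16 was not called (1.23, SE 0.63, edgeR adjusted p = 0.151), with -0.01 without that library. Adamts18 had 100.5, 44.5 and 55.8 CPM in mutants and 52.9, 33.5 and 40.8 CPM in controls, again with mutant replicate 1 highest (0.66, SE 0.31, edgeR adjusted p = 0.117), and DESeq2 called it higher (adjusted p = 0.0457). Adamts6 was called lower without mutant replicate 1 (-0.53, adjusted p = 0.0212) and had a log2 fold change of -0.14 with all libraries. Adamts19 had -0.15 and was not called.

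Genes around these proteases were read from lists chosen with earlier results of these data known. Beside the counts of these lists, 45.8% of all 16604 tested genes were called, 24.1% higher and 21.7% lower. Of 6 ADAMTS-like proteins, which carry ADAMTS repeats but no protease domain, 4 rose, 2 were not called and the median log2 fold change was 0.58. They include Adamtsl5 (2.09, SE 0.33, edgeR adjusted p = 0.00223) and Adamtsl4 (1.79, SE 0.38, edgeR adjusted p = 0.00813). Of 11 tested activating proteases and partners 2 rose, 3 fell and 6 were not called. Pcsk5, a proprotein convertase, was lower (log2 fold change -0.67, SE 0.11), and Htra1, a secreted serine protease, rose by 1.21 (SE 0.22). Furin, the convertase that activates membrane-bound MMPs and ADAMTS precursors, was among those that rose (0.45, SE 0.09).

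Of 11 genes listed under other inhibitors and clearance 4 rose, 1 fell and 6 were not called. The list also holds Pcolce, Pcolce2 and Serpinh1, which act on procollagen and are not protease inhibitors. Papln, a matrix protein related to the ADAMTS family, rose by 1.58 (SE 0.26). Pcolce2, an enhancer of procollagen C-terminal processing, was the 1 that fell (-2.48, SE 0.38). Reck, a membrane-anchored inhibitor of MMPs, had means of 106 ± 13.3 CPM in mutants and 105 ± 13.9 CPM in controls and was not called (0.01, SE 0.13). Of 17 tested genes in a list of ADAM, astacin and other metalloproteases 7 rose, 1 fell and 9 were not called. Adam28 (2.60, SE 0.20) and Adam8 (2.39, SE 0.25) were the smallest in p. The 1 that fell was Phex (-2.99, SE 0.51), which like Mme in this list is neither an ADAM nor an astacin protease. Both Adam28 and Adam8 are known from leukocytes.

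Among 15 tested matrix substrates 4 rose, 4 fell and 7 were not called. Ncan, the neural proteoglycan neurocan, rose by 2.97 (SE 0.27) and Col2a1, the cartilage collagen cut by collagenases, was lower (-1.71, SE 0.20). Vcan, the versican cut by several ADAMTS proteases, was also lower (-0.50, SE 0.12, edgeR adjusted p = 0.0122). Of 13 tested transcription factors known to act on protease genes 2 rose, 3 fell and 8 were not called. Runx2, the bone factor that acts on Mmp13, was lower (-1.30, SE 0.18), as was Etv4, an ETS factor (-2.03, SE 0.29). The AP-1 genes Fosl2 (0.91, SE 0.14) and Junb (0.95, SE 0.15) were the 2 that rose, while Fos was not called (0.001, SE 0.54).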

How the data were processed

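The authors deposited whole-number read counts per gene symbol for each library. Per the submitters' processing notes, which give no versions, HISAT2, StringTie and the builds mm9 and mm10 are named, with HISAT2 also per the file headers of 4 libraries. Which program counted, the strand setting and the gene models were not given in the sources used here. Groups and replicate numbers came from the titles.

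The deposited counts entered edgeR 4.0.16 (R 4.3.3) unchanged: filterByExpr by group, TMM scaling, and the quasi-likelihood F test of mutant against control without a covariate, adjusted by Benjamini-Hochberg over all 16604 tested genes. The standard error came from dividing the size of the log2 fold change by the root of F. Levels per length used merged exons of GENCODE M21 on GRCm38, with all 46 members matched. The fit was also run on simulated data, and its outcome, good or bad, is not reported here.

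Members, gene lists and alternatives were chosen with earlier results of these data known. By the naming rule, all TIMPs and up to 4 tested members per role with the smallest p are given per library, called members are all named, and pathway lists name up to 2 called genes. Furin, Vcan, Reck, Fos, Fosl2, Junb, Phex, Mme, Pcolce and Serpinh1 were named after their values were seen. Upstream sequences are from RefSeq on GRCm38.p6. Alternatives were other scalings, filters, DESeq2 1.42.0, limma-voom 3.58.1, a 1.5-fold threshold, thinning to equal depth, a replicate block, each library left out, and 4 settings added after the data were seen: replicate 1 of both groups left out, halved counts, a Y-linked covariate, and a centred GC and length correction. Even counts are no sample of independent reads, so floors cover counting error only.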

Additional observations from a re-analysis of the deposited data

How the results depend on the processing

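Over 20 alternatives, Mmp9 and Adamts13 were called in the same direction each time. No other called member changed direction where it was tested, but the 1 CPM filter left Mmp8 untested (4 members higher). Member calls (5 higher, 2 lower) ranged from 3 to 6 higher and 2 to 4 lower with 1 library left out. They were 3 higher without control replicate 3, mutant replicate 2 or mutant replicate 3, and 4 lower without control replicate 1. All genes ranged from 3170 to 3998 higher and 2610 to 3661 lower. Against a 1.5-fold change 2 members were higher and 1 lower (1967 and 505 of all genes). DESeq2 called 7 members higher and 4 lower (4381 and 4010 of all genes), the replicate block 7 and 5 (3720 and 3302), leaving out replicate 1 of both groups 7 and 6 (4595 and 4509), and the Y-linked covariate 5 and 1 (2710 and 2309). The block gained 5 member calls and the fit without replicate 1 gained 6. Both called Adamts17 lower (edgeR adjusted p = 0.0265 and 0.0173) and Adamts18 higher (edgeR adjusted p = 0.0137 and 0.0375). With the block, Mmp16 (edgeR adjusted p = 0.0233) and Adamts9 (edgeR adjusted p = 0.0215) were also lower. Adamts8 was higher with the block (edgeR adjusted p = 0.0323). Scaling moved the median of all genes by at most 0.068 (log2). Same-numbered libraries correlated at 0.081, 0.082 and 0.02 in their deviations, and the replicate block rests on numbers alone. Every library but control replicate 3 correlated best with its own number. Control replicate 3 correlated best with mutant replicate 2 (0.048).

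Members that changed sign were called neither with all libraries as analysed first nor in the setting that turned them, and the cause was not tested. Adamts2 turned to 0.0009 with DESeq2 size factors, 0.0298 with upper-quartile scaling, 0.067 with library size only, 0.025 with the 1 CPM filter, 0.0012 with DESeq2, 0.0041 thinned, 0.0018 with the replicate block, 0.0029 with halved counts and 0.45 with the Y-linked covariate. Adamts14 turned to 0.026 (upper quartile), 0.061 (library size), 0.021 (1 CPM filter), 0.13 (replicate 1 of both groups left out), 0.043 (Y-linked covariate) and 0.095 (GC and length). With library size only Adamts4 was 0.033, Adamts5 0.027 and Mmp2 0.0202. With replicate 1 of both groups left out Mmp11 was -0.094, Adamts1 -0.035, Adamts5 0.32, Mmp23 -0.089, Mmp13 -0.60, Mmp12 -0.047 and Mmp10 -0.67. With the Y-linked covariate Adamts4 was 0.17, Adamts10 -0.018, Adamts3 0.45 and Mmp2 0.10. With the GC and length correction Mmp11 was -0.058 and Adamts5 0.054.

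With 1 library left out, log2 fold changes ranged from -0.074 to 0.16 for Adamts1, from -0.11 to 0.16 for Adamts14, from -0.0066 to 1.61 for Adamts16, from -0.28 to 0.055 for Adamts19, from -0.20 to 0.18 for Adamts2, from -0.39 to 0.11 for Adamts3, from -0.18 to 0.11 for Adamts4, from -0.33 to 0.29 for Adamts5, from -0.53 to 0.072 for Adamts6, from -0.21 to 2.25 for Mmp10, from -0.11 to 0.15 for Mmp11, from -0.24 to 1.49 for Mmp13, from -0.30 to 0.027 for Mmp17, from -0.127 to 0.0201 for Mmp2, from -0.048 to 0.27 for Mmp23, from -0.036 to 0.39 for Mmp25 and from -0.0504 to 0.054 for Timp3. Depth limits the 6 untested MMPs, which had at most 18 counts in a library.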
